A study of Mus musculus with 4 samples.

Results

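The granins are a family of acidic proteins packed into the secretory granules of endocrine cells and neurons. The 7 members described here, Chga, Chgb, Scg2, Scg3, Scg5, Vgf and Pcsk1n, were chosen by gene symbol from the 55536 genes of a count table, and all 7 were found. They were measured by bulk RNA sequencing of islets, the clusters of endocrine cells in the pancreas, from male C57BL/6 mice at 8 weeks of age, with no allele or treatment of the animals named in the labels. The 4 libraries were made from polyadenylated RNA, 2 of them insulin-depleted (treated during library preparation with a panel that removes insulin sequences) and 2 non-depleted. The labels call the 2 libraries of each group biological replicates, but all 4 column names share 1 pair of codes. Separate animals are therefore not established, and the spread on which p-values rest may be technical. Column names of non-depleted libraries alone hold a tag that appears to mean size selection, and a difference in that step cannot be told apart from depletion. The question for the granins was how abundant each is in islets and whether removing insulin sequences altered their measured levels.

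Granins are made in the endoplasmic reticulum, aggregate with calcium in the acidic, late Golgi, and are carried into dense-core granules together with prohormones. Many are precursors themselves, cut at runs of basic residues by the same convertases that cut proinsulin and proglucagon. In islets they are found in beta cells and in the other endocrine cell types, and chromogranin A is widely used as a marker of endocrine cells.

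The members divide into granule-forming proteins, peptide precursors and chaperones or inhibitors of the convertases. Chga (ENSMUSG00000021194; chromosome 12, 102554969 to 102565028, plus strand, GRCm38) encodes chromogranin A, which promotes granule formation. Chgb (ENSMUSG00000027350; chromosome 2, 132781278 to 132795079, plus strand) encodes chromogranin B. Scg2 (ENSMUSG00000050711; chromosome 1, 79434669 to 79440120, minus strand) encodes secretogranin II, the precursor of the peptide secretoneurin. Scg3 (ENSMUSG00000032181; chromosome 9, 75643189 to 75684056, minus strand) encodes secretogranin III, which binds cholesterol-rich granule membrane and chromogranin A. Scg5 (ENSMUSG00000023236; chromosome 2, 113776362 to 113829121, minus strand) encodes the chaperone that the convertase encoded by Pcsk2 needs to become active. Pcsk1n (ENSMUSG00000039278; chromosome X, 7919822 to 7924410, plus strand) encodes proSAAS, an inhibitor of the convertase encoded by Pcsk1. Vgf (ENSMUSG00000037428; chromosome 5, 137026392 to 137033351, plus strand) encodes a nerve-growth-factor-inducible precursor of several secreted peptides.

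The coding sequences show how these roles are written into the precursors. The stretches below, from the GENCODE M21 transcripts of GRCm38, are given 5′ to 3′ on the coding strand with codons of basic residues at the processing sites in capitals, and codons are counted from the start codon. Codons 184 to 216 of Scg2 encode secretoneurin, and codons 358 to 371 of Chga encode a peptide known to be cut from chromogranin A; both are shown with the 2 basic codons on either side. Codons 235 to 242 of Pcsk1n hold the site through which proSAAS inhibits its convertase, and codons 171 to 181 of Scg5 hold the site at which its product is cut.
Scg2: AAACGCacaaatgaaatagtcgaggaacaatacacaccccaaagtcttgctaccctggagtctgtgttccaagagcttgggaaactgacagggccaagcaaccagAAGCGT
Chga: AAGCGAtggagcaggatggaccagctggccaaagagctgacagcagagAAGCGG
Pcsk1n: ggggctctgctacgcgtcAAACGC
Scg5: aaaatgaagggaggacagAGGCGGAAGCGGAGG

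All 7 genes encoded more acidic precursors than the median protein-coding gene. Acidic residues made up 23.2% of the 677 encoded residues of Chgb, 21.8% of the 463 of Chga, 20.3% of the 617 of Vgf, 19.7% of the 471 of Scg3 and 19.1% of the 617 of Scg2. The median over 21723 protein-coding genes was 11.2%, and between 0.691% (at the level of Chgb) and 3.03% (at that of Scg2) of these genes were at least as acidic as these 5 members. The convertase partners were shorter and less acidic, with 14.6% of 212 residues for Scg5 and 13.2% of 258 for Pcsk1n. At least as acidic as Scg5 were 15.6% of coding genes, and as Pcsk1n 27.2%.

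Chgb was also the member with the most potential processing sites. Its precursor held 23 pairs of adjacent basic residues in 18 separate runs, or 3.40 pairs per 100 residues, against a median of 1.40 over coding genes. Vgf held 16 pairs in 10 runs, Chga 9 in 8 runs and Scg2 9 in 9 runs. Scg3 and Scg5 held 7 pairs each, in 7 and 4 runs, and Pcsk1n held 5 in 5 runs. Per 100 residues, Scg5 held 3.30 pairs, Vgf 2.59, Chga 1.94, Pcsk1n 1.94, Scg3 1.49 and Scg2 1.46. At least as many pairs per residue were held by 7.62% of coding genes for Chgb and 8.13% for Scg5. For Scg3 and Scg2, near the median, the shares were 46.1% and 47.2%. These are counts of letters, not of sites known to be cut. In Scg5 all runs lay in the final part of the precursor, past the middle, while in Chgb they were spread along most of it.

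**Figure D1:**
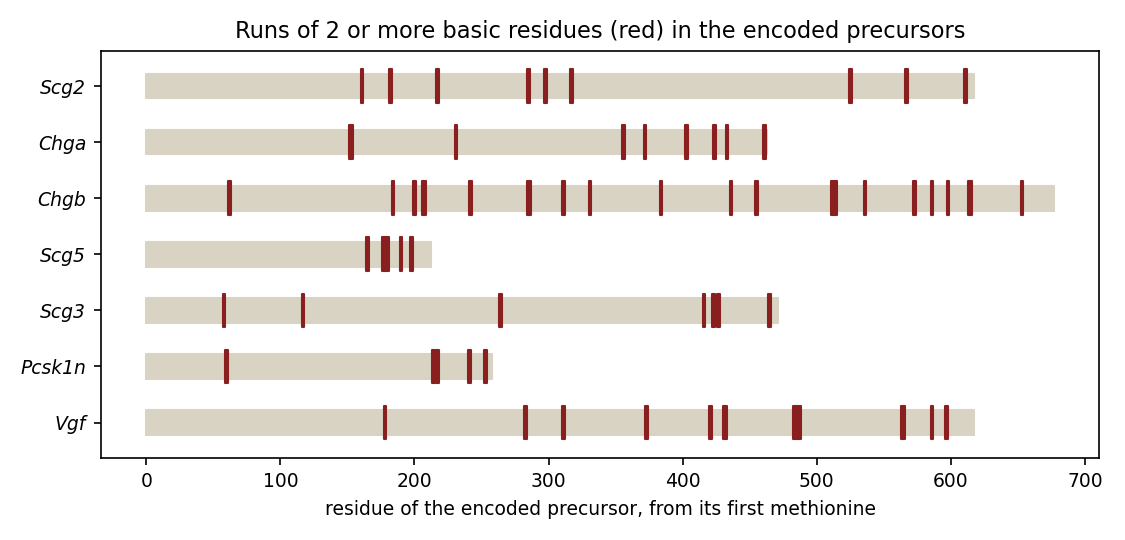
Position of runs of 2 or more basic residues (red) along the encoded precursor of each granin (tan bar), counted in residues from the first methionine, with members from top to bottom in order of level per length. Chgb holds 18 runs in 677 residues, while Scg5 holds 4 in 212.

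The upstream sequences of 6 members were matched by symbol in the RefSeq promoter table of GRCm38.p6, which gives 250 bases before and 50 bases after each start. Vgf was not matched, so its promoter was not searched. Motifs were searched by their letters on both strands. TGACGTCA, the response element that binds the cyclic-AMP-responsive factor CREB, was found in Chgb and Scg2, 2 of the 6, and in 1.79% of 32851 promoters. Its shorter core TGACG, which is part of TGACGTCA, was found in 5 of the 6 (all but Pcsk1n) and in 20.8% of promoters. GGGCGG, the core of a GC box, was found in Chga, Chgb, Scg5 and Pcsk1n, or 4 of the 6, and in 35.7% of promoters. TATAAA was found in Chga alone among the 6, where it begins 5 bases after the RefSeq start, and in 13.6% of promoters. The windows below show the element and its surroundings 5′ to 3′ on the gene's strand, with the motif in capitals. They lie at chr12:102554885-102554914 (plus strand) for Chga, chr2:132781559-132781588 (plus) for Chgb, chr1:79440076-79440105 (minus) for Scg2, chr9:75684069-75684098 (minus) for Scg3 and chr2:113829249-113829278 (minus) for Scg5. The motif begins 44 bases before the RefSeq start in Chga, 72 in Chgb, 68 in Scg2, 30 in Scg3 and 175 in Scg5. The Chgb and Scg2 windows lie within annotated exons of the GENCODE gene models, which start further upstream.
Chga: ggggcggtcctaTGACGtaatttcctgggt
Chgb: gggctgctccgTGACGTCAgggctgagcga
Scg2: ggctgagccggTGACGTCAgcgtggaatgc
Scg3: gcgctgggtcgcTGACGccatcctcacgcc
Scg5: aaaggaggtaaaTGACGttcataggggtcg

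The counts behind the members were large. Totals were 19316173 and 65030111 counts in insulin-depleted replicates 1 and 2, and 50605417 and 60528485 in non-depleted replicates 1 and 2. Levels are given as CPM, a gene's counts scaled to 1 common total of counts outside Ins1 and Ins2 per library, so that the removal of insulin does not by itself shift other genes. On this scale 3 counts correspond to 0.0463 to 0.156 CPM, and the lowest count of any member in any library was 1340, for Vgf in insulin-depleted replicate 1. The depletion itself was seen in its targets. Ins1 had 105 and 123 CPM in insulin-depleted libraries, against 11621 and 9215 CPM in non-depleted libraries, and fell by 6.52 on the log2 scale (SE 0.18, edgeR quasi-likelihood test, adjusted p = 0.00289). Ins2 had 1853 and 2522 CPM in insulin-depleted libraries, against 31556 and 32093 CPM in non-depleted libraries, and fell by 3.86 (SE 0.18, edgeR, adjusted p = 0.0178). These were the 2 genes called lower of 19620 tested (0.0102%), and 0 genes were called higher (0.0%).

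Chga and Scg2 were the most abundant granins and also the most variable between libraries. Chga had 3042 and 4681 CPM in insulin-depleted replicates 1 and 2, against 3099 and 4753 CPM in non-depleted replicates 1 and 2. Scg2 had 3282 and 4557 CPM in insulin-depleted replicates 1 and 2, against 3267 and 4576 CPM in non-depleted replicates 1 and 2. For both genes the 2 libraries numbered 2 were the high ones and those numbered 1 the low ones, and the groups overlapped. Group means were 3861 ± 1159 CPM in insulin-depleted and 3926 ± 1170 CPM in non-depleted libraries for Chga (SD, n = 2 each). For Scg2 they were 3919 ± 902 CPM in insulin-depleted and 3922 ± 925 CPM in non-depleted libraries (SD, n = 2 each). Of the 19620 genes tested, 0.0408% had a higher mean CPM than Scg2 and 0.0459% a higher one than Chga.

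Chgb, Scg3 and Scg5 held the middle of the range. Chgb had 1540 and 1850 CPM in insulin-depleted replicates 1 and 2, against 1575 and 1876 CPM in non-depleted replicates 1 and 2. Scg3 had 971 and 1017 CPM in insulin-depleted replicates 1 and 2, against 948 and 1019 CPM in non-depleted replicates 1 and 2. Scg5 had 620 and 703 CPM in insulin-depleted replicates 1 and 2, against 628 and 704 CPM in non-depleted replicates 1 and 2. In each case the groups overlapped, and Scg3 varied least, with means of 994 ± 32.5 CPM in insulin-depleted and 983 ± 50.3 CPM in non-depleted libraries (SD, n = 2 each). Chgb averaged 1695 ± 219 CPM in insulin-depleted and 1725 ± 213 CPM in non-depleted libraries, and Scg5 661 ± 58.9 and 666 ± 53.5 CPM in the same groups (SD, n = 2 each).

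Pcsk1n and Vgf were the least abundant members. Pcsk1n had 204 and 221 CPM in insulin-depleted replicates 1 and 2, against 218 and 226 CPM in non-depleted replicates 1 and 2, with means of 212 ± 11.8 and 222 ± 5.39 CPM in these groups (SD, n = 2 each). Vgf had 69.5 and 87.0 CPM in insulin-depleted replicates 1 and 2, against 71.2 and 83.1 CPM in non-depleted replicates 1 and 2. Its means were 78.2 ± 12.4 CPM in insulin-depleted and 77.2 ± 8.48 CPM in non-depleted libraries (SD, n = 2 each), and 16.4% of genes tested had a higher mean CPM. The groups overlapped for both genes. Pcsk1n shares 135 bases with Eras, a gene on the opposite strand, and whether counting used strand is not given in the sources used here. Eras had 0 and 0 counts in insulin-depleted replicates 1 and 2 and 0 and 2 in non-depleted replicates 1 and 2, against at least 3935 for Pcsk1n in each library.

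**Figure D2:**
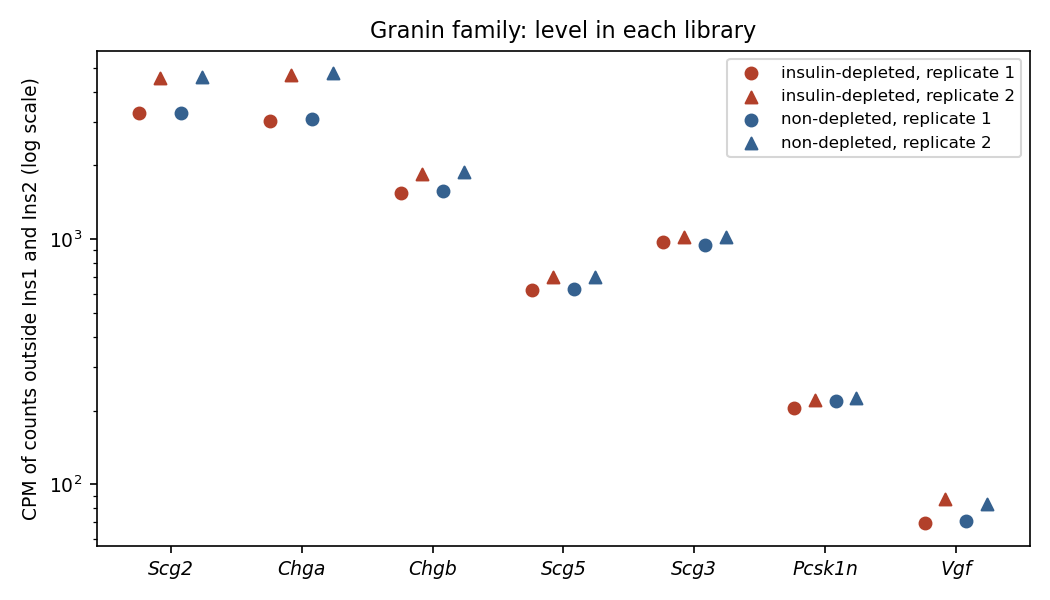
Level of each granin (CPM of counts outside Ins1 and Ins2, log axis) in the 4 libraries, insulin-depleted in red and non-depleted in blue, with circles for replicate 1 and triangles for replicate 2 and members ordered by level per length. Triangles lie above circles of the same colour for all 7 genes, by most for Chga and Scg2, and colours of the same symbol nearly coincide.

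No granin passed the test between groups. The log2 fold change of insulin-depleted over non-depleted libraries was -0.024 for Chga (SE 0.28, 95% interval -0.72 to 0.67) and -0.00077 for Scg2 (SE 0.22, interval -0.55 to 0.55). It was -0.026 for Chgb (SE 0.13, interval -0.36 to 0.31), 0.015 for Scg3 (SE 0.080, interval -0.19 to 0.22) and -0.0095 for Scg5 (SE 0.10, interval -0.27 to 0.25). For Pcsk1n it was -0.063 (SE 0.077, interval -0.26 to 0.13) and for Vgf 0.023 (SE 0.14, interval -0.33 to 0.38). By edgeR's quasi-likelihood test 0 of 7 members were called, beside 0.0% of all genes tested called higher and 0.0102% lower, and each had an adjusted p of 1.00. The smallest unadjusted edgeR p among them was 0.445, for Pcsk1n, so 0 members had one under 0.05, and DESeq2 and limma-voom also called 0. With totals that include insulin, the values of Chga, Chgb, Scg2 and Scg5 lay above 0, up to 0.055, and leaving out 1 library in turn gave -0.37 to 0.32 for Chga. A p of this kind does not show equality. The intervals allow a fold between 0.607 and 1.59 for Chga and between 0.681 and 1.47 for Scg2. The narrowest, those of Pcsk1n (0.837 to 1.09) and Scg3 (0.879 to 1.16), allow much less. All these intervals come from the fit on group alone, which counts the difference between replicate numbers as spread. With a replicate block, log2 intervals were -0.048 to -0.0012 for Chga, -0.11 to -0.0092 for Pcsk1n and -0.023 to 0.023 for Scg2. Those of the other members spanned 0, and no member was called. The labels do not say that replicate numbers pair libraries. Both groups of libraries overlapped for all 7 members. Over the 19620 genes, insulin-depleted libraries lay wholly above non-depleted ones in 10.0% and wholly below in 9.38%. With only 7 members, overlap in all of them is not far from that share and is not read as a trait of the family. The median log2 fold change of the members was -0.0095, with 2 above and 5 below 0. Over all genes tested other than Ins1 and Ins2 it was 0.00164.

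**Figure D3:**
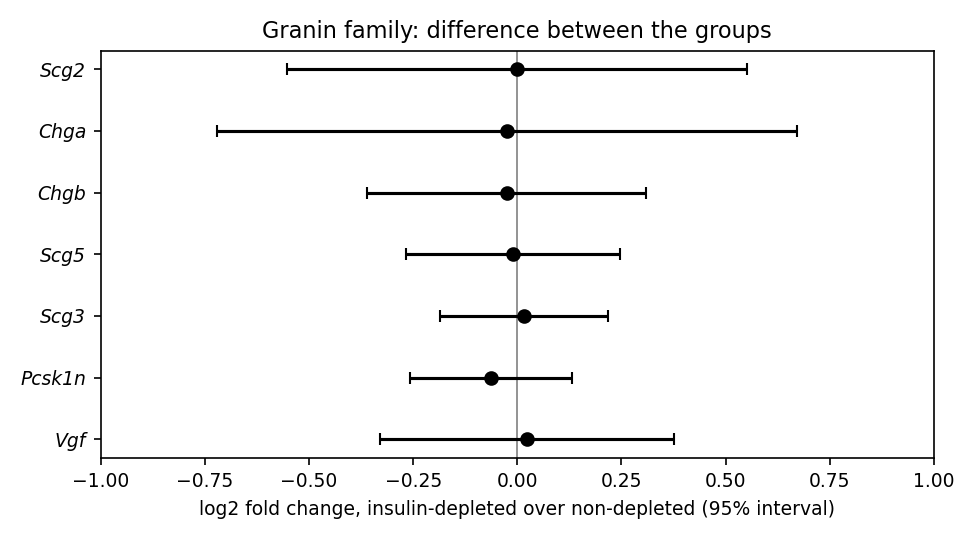
Log2 fold change of insulin-depleted over non-depleted libraries for each granin (points) with its 95% interval from edgeR (bars), members from top to bottom in order of level per length. All 7 intervals span 0, and that of Chga, from -0.72 to 0.67, is the widest.

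Exact runs of bases shared with the depleted targets were measured for each member. The longest run of identical bases between a member's transcripts and those of Ins1 or Ins2 was 20 bases for Scg3 and 11 to 12 bases for the other 6. Of 377 stretches of 20 bases of insulin transcripts that stand before an NGG motif, the kind of site recognised by the common CRISPR nuclease, 0 were found in any member. The guides of the panel were not used here, and inexact matches were not searched, so whether the panel can act on a member was not tested.

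Levels per length allow the members to be ranked against each other. On the scale of CPM per kb of merged exons, Scg2 had 1305 and 1812 in insulin-depleted replicates 1 and 2, against 1299 and 1820 in non-depleted replicates 1 and 2. Chga had 1104 and 1698 CPM per kb in insulin-depleted replicates 1 and 2, against 1124 and 1725 in non-depleted replicates 1 and 2. The ranges of these 2 genes overlapped, although Scg2 was 1.05 to 1.18 times Chga within each library. Which of them leads depends on the gene model, since with the longest coding transcript, 1.883 kb in place of 2.756 kb for Chga, the level of Scg2 was 0.721 to 0.808 times that of Chga.

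Below them the order was the same in all 4 libraries, and with merged exons as length neighbours did not overlap. Chgb averaged 624 CPM per kb over the 4 libraries, Scg5 423 and Scg3 361. Pcsk1n averaged 99.1 and Vgf 26.1 CPM per kb. Within a library, Chga was 1.96 to 2.52 times Chgb, Chgb 1.42 to 1.53 times Scg5, and Scg5 1.11 to 1.21 times Scg3. A wider step followed, as Scg3 was 3.48 to 3.81 times Pcsk1n and Pcsk1n 3.44 to 4.16 times Vgf. The whole family spanned 54.3- to 65.1-fold, from Scg2 to Vgf. Among protein-coding genes ordered by CPM per kb, Scg2 stood at rank 15 and 11 in insulin-depleted replicates 1 and 2 and at 16 and 12 in non-depleted replicates 1 and 2. Chgb stood between ranks 23 and 36, Scg5 between 39 and 57, and Scg3 between 50 and 68. Pcsk1n stood between ranks 278 and 329, and Vgf between 1508 and 2032. The step from Chgb to Scg5 depends on the gene model. With the longest coding transcript, Chgb had 562 to 685 CPM per kb and Scg5 513 to 582, so these ranges overlapped. Within a library Chgb was then 1.10 to 1.18 times Scg5.

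Scg5 and Pcsk1n each act on a convertase, and their levels per length exceeded those of the enzyme, although their CPM did not. The ratio of Scg5, the chaperone, to Pcsk2 in CPM per kb was 1.38 and 1.51 in insulin-depleted replicates 1 and 2, against 1.43 and 1.51 in non-depleted replicates 1 and 2. The ratio of Pcsk1n, the inhibitor, to Pcsk1 was 1.35 and 1.81 in insulin-depleted replicates 1 and 2, against 1.49 and 1.87 in non-depleted replicates 1 and 2. Both ratios were above 1 in every library and overlapped between groups. With the longest coding transcript as length, a choice added after seeing the data, they were 1.07 to 1.17 for Scg5 over Pcsk2 and 1.22 to 1.69 for Pcsk1n over Pcsk1. In CPM, which is not scaled by length, they were 0.273 to 0.300 and 0.530 to 0.734. They are ratios of transcripts and say nothing of protein.

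**Figure D4:**
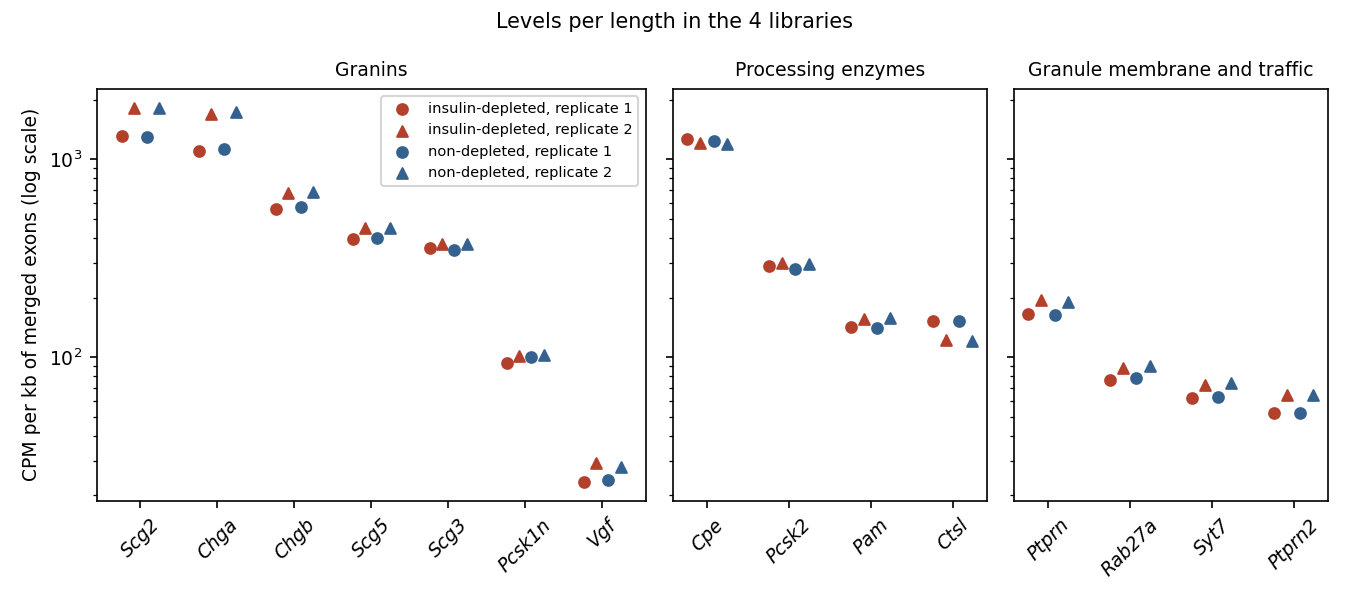
Level per length (CPM per kb of merged exons, log axis) in the 4 libraries for the 7 granins (left), the 4 processing enzymes with the highest mean CPM (middle) and 4 genes of the granule membrane and its traffic (right), insulin-depleted in red, non-depleted in blue, circles for replicate 1, triangles for replicate 2. Scg2, Chga and Cpe lie highest, and Vgf, near 26, lies below all other genes shown.

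Taking the family as a whole, its 7 genes held 0.973% and 1.31% of counts outside insulin in insulin-depleted replicates 1 and 2, against 0.981% and 1.32% in non-depleted replicates 1 and 2. Their summed level was 11421 ± 2396 CPM in insulin-depleted and 11522 ± 2426 CPM in non-depleted libraries (SD, n = 2 each), a difference far smaller than the spread within a group. Chga and Scg2 made up 65.01% and 70.4% of the family's counts in insulin-depleted replicates 1 and 2, against 64.9% and 70.5% in non-depleted replicates 1 and 2. As a share of all counts, insulin included, the family held 0.971% and 1.31% in insulin-depleted replicates 1 and 2, against 0.940% and 1.27% in non-depleted replicates 1 and 2.

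Chga and Scg2 differed far more between replicate numbers than between groups, while for Pcsk1n both differences were small. The level in replicate 2 divided by that in replicate 1 was 1.54 in insulin-depleted and 1.53 in non-depleted libraries for Chga, and 1.39 and 1.40 in the same groups for Scg2. It was 1.25 in insulin-depleted and 1.17 in non-depleted libraries for Vgf, 1.20 and 1.19 for Chgb, and 1.13 and 1.12 for Scg5. For Pcsk1n it was 1.08 in insulin-depleted and 1.03 in non-depleted libraries, and for Scg3 1.05 and 1.07. Thus all 7 were higher in replicate 2 of both groups, also with TMM factors (smallest ratio 1.02) and with totals that include insulin (smallest ratio 1.04). Of 4739 genes that averaged 50 CPM or more, 44.5% were higher in replicate 2 of both groups and 41.7% lower. Chga and Scg2 stood near the edge of this set, with 22 genes above Chga and 62 above Scg2 in both groups. Scg3 and Pcsk1n lay well inside it, with 28.1% to 40.1% of genes at a higher ratio. No test was made of the replicate number, since the labels do not say what it marks.

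Some lists of cell markers also differed between replicate numbers. All 14 tested of 15 acinar-cell markers, genes of digestive enzymes such as Ctrb1, Pnlip, Cela1 and Cela2a, were lower in replicate 2 of both groups, with median log2 ratios of -1.27 in insulin-depleted and -1.29 in non-depleted libraries. Their sum was 17531 and 7272 CPM in insulin-depleted replicates 1 and 2, against 17555 and 7242 CPM in non-depleted replicates 1 and 2. That is 1.75% and 0.727% of counts outside insulin in insulin-depleted replicates 1 and 2, against 1.76% and 0.724% in non-depleted replicates 1 and 2. The remaining marker, Amy2a5, had 2 to 4 counts per library. Of 8 beta-cell markers, led by Iapp, G6pc2, Nkx6-1 and Slc30a8, 6 were higher in replicate 2 of both groups and 2 lower. The lower ones were Iapp, at 0.952 times in insulin-depleted and 0.927 times in non-depleted libraries, and G6pc2, at 0.986 and 0.990 times. The sum of the 8, most of it Iapp, was 19496 and 18675 CPM in insulin-depleted replicates 1 and 2, against 19812 and 18527 CPM in non-depleted replicates 1 and 2. The 3 delta- and gamma-cell markers Ppy, Sst and Hhex summed to 3171 and 2537 CPM in insulin-depleted replicates 1 and 2, against 3265 and 2588 CPM in non-depleted replicates 1 and 2. Ppy carried this difference, at 0.711 times in insulin-depleted and 0.700 times in non-depleted libraries for replicate 2 over 1, whereas Sst, the delta-cell hormone, stood at 1.24 and 1.26 times in the same groups. The part of any of these in the granin difference was not tested. In bulk islets a different number of cells of a type and a different amount of RNA per cell cannot be told apart.

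Markers of duct, vessel, stroma, immune and nerve cells had smaller sums than these lists. Duct-cell markers summed to 1122 to 1145 CPM in insulin-depleted and 1131 to 1161 CPM in non-depleted libraries, and endothelial markers to 905 to 1024 and 904 to 1016 CPM in the same groups. Stromal markers summed to 122 to 146 CPM in insulin-depleted and 121 to 140 CPM in non-depleted libraries, immune markers to 54.9 to 72.3 and 59.9 to 72.1 CPM, and Schwann-cell markers to 18.3 to 20.5 and 18.2 to 20.8 CPM. All 5 endothelial markers were higher in replicate 2 of both groups, as the granins were, with median log2 ratios of 0.20 in insulin-depleted and 0.22 in non-depleted libraries, and all 5 stromal markers were lower, with -0.34 and -0.31. The duct, immune and Schwann lists were mixed, with 1 higher and 3 lower of 5, 3 higher and 1 lower of 5, and 1 higher and 1 lower of 3. The part of these lists in the granin difference was not tested either. Granins are also high in chromaffin cells and autonomic neurons, whose 4 markers summed to 9.65 to 11.05 CPM in insulin-depleted and 8.70 to 11.2 CPM in non-depleted libraries. Of these, Pnmt, the enzyme of adrenaline synthesis, was at 0 counts in all 4 libraries, and Dbh, that of noradrenaline, was at most 0.275 CPM. No gene of the marker lists given here was called between groups.

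**Figure D5:**
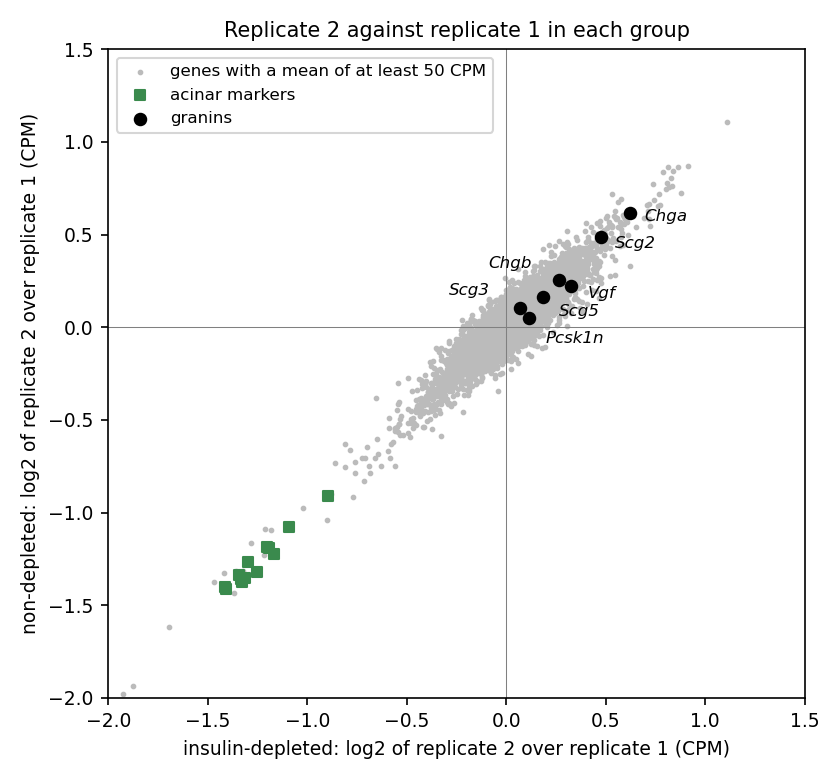
Log2 of replicate 2 over replicate 1 in insulin-depleted (x axis) and non-depleted (y axis) libraries for each gene that averaged 50 CPM or more (grey), with granins in black and acinar-cell markers in green; 2 genes lie outside the axes. All 7 granins lie above and right of 0, Chga farthest, and the acinar markers lie at the opposite end.

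The machinery that cuts and trims granule precursors was listed for comparison, and 0 of its 10 genes were called between groups. Log2 fold changes lay above 0 for 8 of them and below for 2, over a range of -0.12 to 0.083 with median 0.019. The median over all genes tested other than Ins1 and Ins2 was 0.00164. Cpe, the carboxypeptidase that removes the basic residues left after a cut, had 3305 and 3133 CPM in insulin-depleted replicates 1 and 2, against 3237 and 3124 CPM in non-depleted replicates 1 and 2. Pcsk2 had 2269 and 2351 CPM in insulin-depleted replicates 1 and 2, against 2209 and 2345 CPM in non-depleted replicates 1 and 2. Pam, which amidates peptide ends, had 1692 and 1858 CPM in insulin-depleted replicates 1 and 2, against 1678 and 1870 CPM in non-depleted replicates 1 and 2. Ctsl, a lysosomal protease also found in granules, had 986 and 790 CPM in insulin-depleted replicates 1 and 2, against 989 and 786 CPM in non-depleted replicates 1 and 2. Unlike the granins, where all 7 were higher in replicate 2 of both groups, this list had 2 of 10 higher and 6 lower. That contrast was not tested.

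Genes of the granule membrane and of granule formation gave 0 of 19 called, with 10 above and 9 below 0 and a median log2 fold change of 0.0022. Ptprn, a granule membrane protein and islet autoantigen, had 704 and 828 CPM in insulin-depleted replicates 1 and 2, against 693 and 811 CPM in non-depleted replicates 1 and 2. Syt7, a calcium sensor of exocytosis, had 467 and 540 CPM in insulin-depleted replicates 1 and 2, against 473 and 556 CPM in non-depleted replicates 1 and 2. Ptprn2, the close relative of Ptprn, and Rab27a, a small GTPase of granule docking, had log2 fold changes of 0.0022 (SE 0.15) and -0.037 (SE 0.11). In this list 13 of 19 genes were higher in replicate 2 of both groups and 6 lower.

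Granins travel with peptide hormones, so the ratio of the family to 8 hormone genes other than insulin was also taken. It was 0.278 and 0.413 in insulin-depleted replicates 1 and 2, against 0.277 and 0.416 in non-depleted replicates 1 and 2. Of the hormones, 0 of 8 were called, 3 lay above and 5 below 0, and the median log2 fold change was -0.0045. Iapp, the gene of amylin, had 18445 and 17552 CPM in insulin-depleted replicates 1 and 2, against 18761 and 17396 CPM in non-depleted replicates 1 and 2. Gcg, the glucagon gene of alpha cells, had 12718 and 11136 CPM in insulin-depleted replicates 1 and 2, against 12812 and 11317 CPM in non-depleted replicates 1 and 2. Ppy and Sst, the genes of pancreatic polypeptide and somatostatin, had log2 fold changes of -0.046 (SE 0.23) and -0.0027 (SE 0.15). The libraries with the highest granin levels were thus not those with the highest Iapp and Gcg.

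Genes with patterns most like the granins were found among 4732 others that averaged 50 CPM or more, by the root mean square difference of centred log2 CPM over the 4 libraries. Nearest to the mean of the family were Ociad2 (0.0036), Suclg2 (0.0042), Dazap1 (0.0047) and Adam22 (0.0063), and 1395 genes lay within 0.1. Of the members, Chgb was closest to this mean (0.0134) and Chga farthest (0.169). The nearest genes to single members were Pdk1 for Chga (0.0157), Kcnk16 for Scg2 (0.0104), Fyn for Chgb (0.0035) and Ggps1 for Scg3 (0.0026). For Scg5, Vgf and Pcsk1n they were Pacs2 (0.0033), Pmepa1 (0.0054) and Diaph1 (0.0067). Chga had 101 genes within 0.1 and Scg2 331, against 3165 for Scg3. With 4 libraries such likeness is a description of these libraries.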

How the data were processed

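The authors deposited 1 table of raw gene counts, whole numbers for 55536 genes in 4 libraries. The non-depleted columns are listed under expected counts only because an automated check of the deposited table read the word size in their headers. They are whole numbers like the other columns, and rounding alters none. Islets were isolated with collagenase, RNA was purified with an RNeasy kit, and library preparation used a KAPA mRNA kit and, for depletion, the DepleteX insulin panel, per the labels' protocols. That text also describes dissociation for a single-cell run and does not say whether bulk islets were dissociated. cutadapt 4.8, STAR 2.7.11b and the build GRCm38 (mm10) were used in steps that are not specified, per the submitters' processing notes. How reads were counted (program, strand, multimapping reads) is not given in the sources used here. In each library, 80.01% to 84.01% of genes with 2 to 9 counts had an even one. Counting each read of a pair would give such a pattern, and a fragment would then add 2 to a count, which was not tested beyond an alternative with counts divided by 2.

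Members were found by the symbol before the Ensembl identifier. All genes were fitted with edgeR 4.0.16 (R 4.3.3; filterByExpr, glmQLFit robust, glmQLFTest) on group alone, with totals without Ins1 and Ins2 as library sizes. Benjamini-Hochberg adjustment ran over 19620 genes, and calls were made below 0.05. All 7 members were tested. The biological coefficient of variation was 17.1% (common dispersion 0.0294). The fit was tested on simulated counts with 50 genes changed at each fold. It recovered 26 of 50 at 1.5-fold and 44 of 50 at 2-fold, with 11 false calls over the whole simulation. That simulation held no difference shared by replicate number, unlike the data. A replicate block, simulated with such a difference, recovered 49 of 50 at 1.5-fold, with 10 false calls. Alternatives were TMM factors, totals with insulin, DESeq2 1.42.0, limma-voom 3.58.1, 2 filters, a replicate block, counts divided by 2, the longest coding transcript as length, and leaving out each library. Replicates differed by more than counting noise (chi-square per degree of freedom 32.7 in insulin-depleted and 51.0 in non-depleted libraries). Exon lengths, coding sequences and residue counts came from GENCODE M21, where all 55536 identifiers matched, and promoters from RefSeq. Residue counts were translated from coding sequences because no protein table was used here.

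The alpha-cell marker list is not reported here. Members and lists were chosen with earlier results of these data known. Named genes were the members, Ins1 and Ins2, the genes of other lists with the highest mean CPM (up to 4) or past the threshold, and the genes nearest in pattern. Pcsk1, Eras, Amy2a5, Pnmt, Dbh, Slc18a1, Slc18a2, Npy and Ghrl were named outside this rule, after their values were seen.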

Additional observations from a re-analysis of the deposited data

How the results depend on the processing

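No member was called under any alternative (lowest adjusted p 0.999). With totals that include insulin, log2 fold changes turned positive for Chga (0.032), Chgb (0.030), Scg2 (0.055) and Scg5 (0.047). That of Scg2 was also positive with limma-voom (0.014) and with a replicate block (8.79e-05). Over the 8 alternatives that kept all libraries, Scg3, Vgf and Pcsk1n kept their sign. Leaving out 1 library, which leaves 1 sample assumed to vary like the other group, gave -0.37 to 0.32 for Chga, -0.26 to 0.26 for Scg2, -0.16 to 0.11 for Chgb, -0.10 to 0.078 for Scg5, -0.15 to 0.17 for Vgf, -0.036 to 0.069 for Scg3 and -0.12 to -0.0082 for Pcsk1n, the only member whose sign held in each. The log2 ratio of the family sum between group means was -0.013, with -0.014 by TMM factors and 0.043 by totals that include insulin. Leaving out 1 library gave -0.24 to 0.22 for this sum. With 2 libraries, leaving 1 out moves a group mean by less than its SD, so these shifts do not test stability. Over all genes, 0 were higher and 2 lower except with a filter at a mean of 5 CPM (1 lower, Ins1, as Ins2 had adjusted p = 0.068) and with the replicate block (2 higher, 7 lower, in place of 0 and 2). The cause was not tested. Same-numbered libraries deviated together (Pearson's r = 0.845 across 11595 genes, which are not independent replicates), but the labels do not say that numbers pair animals. In the blocked edgeR fit Chga was -0.024 (SE 0.012, unadjusted p = 0.039) and Pcsk1n -0.061 (SE 0.026, unadjusted p = 0.021), with adjusted p = 0.999. With the longest coding transcript, Chga (2068 CPM per kb), Scg5 (549) and Scg3 (415) were higher, and the ranges of Chgb and Scg5 overlapped. The interval of Chga was -0.72 to 0.67 in the fit on group alone and -0.048 to -0.0012 with the replicate block. With 2 libraries a group, the part of depth in the width of the intervals was not tested.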

Other observations

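Some low genes of the granule lists differed more between replicate numbers than any granin, and they are named here after their values were seen. Slc18a1, a vesicular monoamine transporter, had 5.91 and 14.6 CPM in insulin-depleted replicates 1 and 2, against 5.13 and 13.9 CPM in non-depleted replicates 1 and 2. Slc18a2, the other such transporter listed, went the other way at a lower level. It had 2.07 and 0.833 CPM in insulin-depleted replicates 1 and 2, against 2.60 and 0.688 CPM in non-depleted replicates 1 and 2. Npy, the neuropeptide Y gene, had 15.6 and 5.44 CPM in insulin-depleted replicates 1 and 2, against 13.6 and 4.66 CPM in non-depleted replicates 1 and 2. Ghrl, the ghrelin gene, had 0.934 and 3.13 CPM in insulin-depleted replicates 1 and 2, against 1.34 and 3.25 CPM in non-depleted replicates 1 and 2. Neither direction was tested, and none of these genes was called between groups.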
